A study of Homo sapiens with 2 samples.

Results

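A set of 10 genes of the desmosome and of proteins that anchor intermediate filaments is described here in H460, a line of human large-cell lung carcinoma cells. They were chosen by symbol as 3 desmosomal cadherins (DSG2, DSC2 and DSC3), 6 plakins (DSP, EVPL, PPL, PLEC, DST and MACF1) and PERP, and all 10 were found among the 22965 genes with counts. RNA-seq was made from 2 cultures, both at passage 5 and grown in DMEM with serum. In the PKP2 culture the pSin-puro vector delivered PKP2 for overexpression, and the vector culture is the control with pSin-puro. There was 1 library per group, so differences could not be checked against replicates, no p-value was computed, and each gene is described by its ratio. Whether the overexpressing cells were a pool or 1 clone was not given in the sources used here.

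The comparison asks which genes lie downstream of PKP2. The PKP2 library held 20319137 counts and the vector library 23513304. Levels are in CPM, a gene's count relative to its scaled library size. Ratios are log2 values with the PKP2 library over the vector library, and 95% intervals cover counting error only. PKP2 (ENSG00000057294) itself had 1330 counts (66.0 CPM) in the PKP2 library, against 181 counts (7.63 CPM) in the vector library, a log2 ratio of 3.11 (interval 2.89 to 3.35). Gene counts do not separate the delivered transcript from the cells' own, and 11.7% of the 31-base stretches of PKP2 also occur in other listed genes.

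Desmosomes are spot-like junctions that join the keratin networks of neighbouring epithelial cells. Desmogleins and desmocollins span the membrane and bind across the gap between cells, plakoglobin and the plakophilins sit on their tails, and the plakin desmoplakin links that plaque to intermediate filaments. Plakophilin 2, the product of PKP2, recruits desmoplakin to the junction, and in tissues such as the heart and simple epithelia its main cadherin partners are desmoglein 2 and desmocollin 2. The other plakins bind filaments elsewhere: envoplakin and periplakin in the cornified envelope, plectin and the epithelial form of dystonin in hemidesmosomes, and the spectraplakins dystonin and MACF1 between actin and microtubules. PERP is a small tetraspan membrane protein of desmosomes and a target of p63.

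The repressors ZEB1, ZEB2, SNAI1 and SNAI2 are known to bind E-boxes with the letters CAGGTG in promoters of epithelial genes. The 250 bases before the RefSeq start are shown for the 3 genes of the desmosome proper that hold these letters, which are in capitals on either strand (CACCTG is the reverse complement). They are 1 plakin that was lower and a pair of cadherins that were higher in the PKP2 library.
DSP promoter (chr6:7541421-7541670, + strand, GRCh38.p14): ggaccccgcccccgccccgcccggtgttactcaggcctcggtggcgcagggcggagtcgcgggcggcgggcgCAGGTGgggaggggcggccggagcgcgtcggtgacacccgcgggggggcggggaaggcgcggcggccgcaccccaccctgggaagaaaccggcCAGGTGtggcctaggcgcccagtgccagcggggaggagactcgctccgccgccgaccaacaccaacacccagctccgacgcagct
DSG2 promoter (chr18:31497927-31498176, + strand, GRCh38.p14): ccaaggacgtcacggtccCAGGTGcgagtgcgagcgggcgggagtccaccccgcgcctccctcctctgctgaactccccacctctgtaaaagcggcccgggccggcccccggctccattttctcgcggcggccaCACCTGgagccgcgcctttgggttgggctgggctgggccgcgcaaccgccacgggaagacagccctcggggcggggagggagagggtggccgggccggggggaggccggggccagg
DSC2 promoter (chr18:31102422-31102671, - strand, GRCh38.p14): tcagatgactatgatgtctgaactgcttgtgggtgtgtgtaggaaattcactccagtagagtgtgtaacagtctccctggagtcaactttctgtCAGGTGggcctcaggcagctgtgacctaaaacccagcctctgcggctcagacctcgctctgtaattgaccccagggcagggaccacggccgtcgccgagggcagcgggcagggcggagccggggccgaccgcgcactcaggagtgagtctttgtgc
Promoter sequences came from RefSeq (GRCh38.p14), whose table matched 7 of the 10 genes with 12 starts. CAGGTG was searched on both strands, no match of it shared bases with a match of the other motifs, and the motifs were chosen after the sequences had been seen. It occurred in 4 of the 12 windows, and in 17.5% of all 35116 promoter windows of that length. DSP held it beginning 178 and 85 bases before its start, DSG2 at 232 and 116 bases, DSC2 at 156 bases before 1 of its starts, and MACF1 at 113 bases before 1 of its starts. The GC-box letters GGGCGG occurred in 7 of the 12 windows, 7 times in that of DSP, and in 42.6% of all windows. The letters of the AP-1 site, TGAGTCA, occurred only in the window of PERP among the 12, 101 bases before the start, and in 4.2% of all windows. These matches are descriptions of the letters and show no binding.

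Across the 10 genes, the junctional and envelope plakins DSP, EVPL and PPL were lower in the PKP2 library and the cadherins DSG2 and DSC2 were higher. Of the 10 genes 2, DSP and EVPL, were at least 2-fold lower, none was at least 2-fold higher and 8 were within 2-fold. Of all 15991 genes tested, those averaging 10 or more counts over both libraries, 4.61% passed 2-fold on the lower side and 2.46% on the higher side. The median ratio of the 10 was 0.20, against -0.03 for all 15991 genes. Counting intervals lay wholly below 0 for 4 of the 10 genes and wholly above 0 for 5, against 28.8% and 25.9% of all tested genes. Whether an interval leaves out 0 depends on a gene's counts as well as its ratio, and these shares were not matched for counts. In bulk RNA, fewer cells that express a gene and less RNA per cell cannot be told apart.

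**Figure D1:**
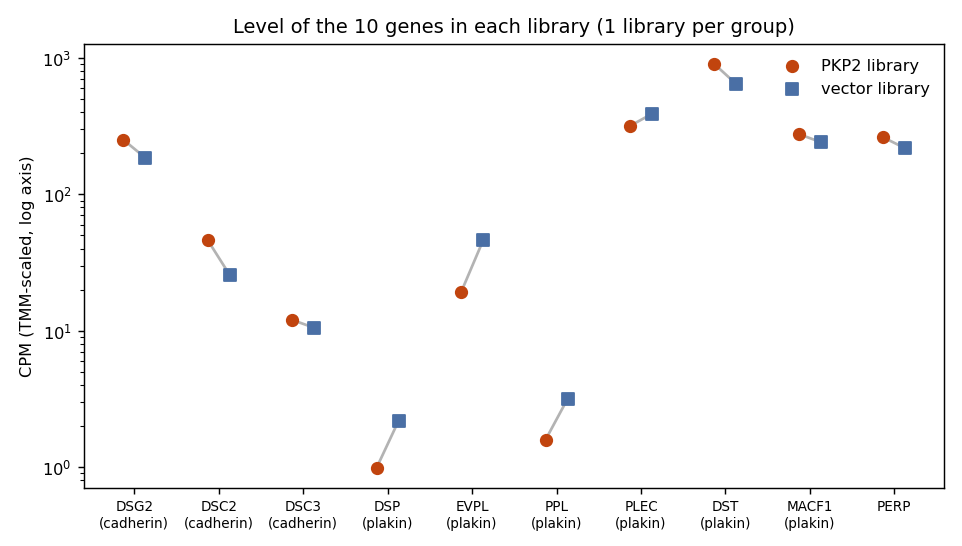
Level of each of the 10 genes in CPM (vertical log axis) in the PKP2 library (circles, left of each pair) and the vector library (squares, right), 1 library each, with no error bars because there are no replicates. DSP, EVPL, PPL and PLEC are lower in the PKP2 library, the other 6 are higher, and the levels run from 0.993 CPM (DSP, PKP2 library) to 899 CPM (DST, PKP2 library).

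The 3 desmosomal cadherins were all above 0 in ratio and none reached 2-fold. DSG2 (ENSG00000046604, chromosome 18), desmoglein 2, the desmoglein of simple epithelia and heart, had 5060 counts (251 CPM) in the PKP2 library, against 4383 counts (185 CPM) in the vector library. It was the most abundant of the 3, and its ratio was 0.44 (interval 0.39 to 0.50), a 1.36-fold higher level. DSC2 (ENSG00000134755, chromosome 18), desmocollin 2, the most widely expressed desmocollin, had 927 counts (46.0 CPM) in the PKP2 library, against 607 counts (25.6 CPM) in the vector library. Its ratio of 0.85 (interval 0.70 to 1.00), or 1.80-fold, was the highest of the 10, and 96.5% of all tested genes had a lower ratio. DSC3 (ENSG00000134762, chromosome 18), desmocollin 3 of stratified epithelia, had 242 counts (12.0 CPM) in the PKP2 library, against 248 counts (10.5 CPM) in the vector library. Its ratio of 0.20 had an interval of -0.06 to 0.46, so a difference was not detectable at this depth.

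In level per kilobase of transcript, DSC2 stood at 2.16 times DSC3 in the PKP2 library and at 1.38 times in the vector library. DSG2 stood at 24.9 times DSC3 in the PKP2 library and at 21.0 times in the vector library, a difference no larger than the counting error of DSC3. Such ratios within a library are not changed by the scaling between libraries. The summed cadherin counts were 6229 in the PKP2 library and 5238 in the vector library, a ratio of 0.49 (interval 0.43 to 0.54), of which DSG2 makes up most. DSG1 and DSG3, the desmogleins of stratified epithelia, are not among the listed genes, DSG4 had 1 count in the PKP2 library and 3 in the vector library, and DSC1 had 5 and 2 counts in the same order.

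Among the plakins of the junction and envelope, DSP (ENSG00000096696, chromosome 6), desmoplakin, the obligate link between plaque and filaments, had only 20 counts (0.993 CPM) in the PKP2 library, against 52 counts (2.19 CPM) in the vector library. Its ratio was -1.14 with a wide interval of -1.96 to -0.37, so the counts do not place it firmly beyond 2-fold. Both libraries therefore held little DSP RNA beside DSG2 and PERP. EVPL (ENSG00000167880, chromosome 17), envoplakin, had 387 counts (19.2 CPM) in the PKP2 library, against 1090 counts (45.9 CPM) in the vector library. Its ratio of -1.26 (interval -1.43 to -1.09), a level of 41.8% of the vector library, was the lowest of the 10 and the only one whose interval lay wholly beyond 2-fold. After the GC correction it was at -0.74 (interval -0.91 to -0.57), within 2-fold, and DSP was the lowest. PPL (ENSG00000118898, chromosome 16), periplakin, which pairs with envoplakin, had 32 counts (1.59 CPM) in the PKP2 library, against 75 counts (3.16 CPM) in the vector library. Its ratio of -0.99 (interval -1.64 to -0.38) lay just inside 2-fold, and with plain library totals it was at -1.02, past 2-fold.

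Per kilobase, EVPL stood at 11.4 times PPL in the PKP2 library and at 13.7 times in the vector library, and the low counts of PPL leave this proportion imprecise. The summed counts of DSP, EVPL and PPL were 439 in the PKP2 library and 1217 in the vector library, a ratio of -1.24 (interval -1.40 to -1.08), and EVPL gives most of them.

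Of the large cytolinkers, PLEC (ENSG00000178209, chromosome 8), plectin, which ties filaments to hemidesmosomes and other anchoring sites, had 6386 counts (317 CPM) in the PKP2 library, against 9227 counts (389 CPM) in the vector library. Its ratio was -0.29 (interval -0.34 to -0.25), and after the correction for GC content described in what follows it was 0.30 (interval 0.26 to 0.35), on the other side of 0. DST (ENSG00000151914, chromosome 6), dystonin, was the most abundant of the 10, with 18096 counts (899 CPM) in the PKP2 library, against 15185 counts (640 CPM) in the vector library. Its ratio was 0.49 (interval 0.46 to 0.52), or 1.40-fold. MACF1 (ENSG00000127603, chromosome 1), the microtubule-actin crosslinking factor, had 5560 counts (276 CPM) in the PKP2 library, against 5722 counts (241 CPM) in the vector library, a ratio of 0.20 (interval 0.14 to 0.25). As counted and per kilobase, DST stood at 2.43 times PLEC in the PKP2 library and at 1.41 times in the vector library, but after the GC correction DST was at 0.34 and PLEC at 0.30, close to each other. The annotation holds 35 transcripts of DST, 34 of MACF1 and 15 of PLEC, from epithelial to neuronal and muscle forms, and gene counts do not tell these apart.

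PERP (ENSG00000112378, chromosome 6) had 5258 counts (261 CPM) in the PKP2 library, against 5146 counts (217 CPM) in the vector library. Its ratio was 0.27 (interval 0.21 to 0.32), a 1.20-fold higher level, and 79.2% of tested genes had a lower ratio. TP63, which encodes p63, had 1 count in the PKP2 library and 3 in the vector library. PERP shares 5.21% of its 31-base stretches with NGRN, and the other 9 genes share from 0 to 3.4% with another listed gene.

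**Figure D2:**
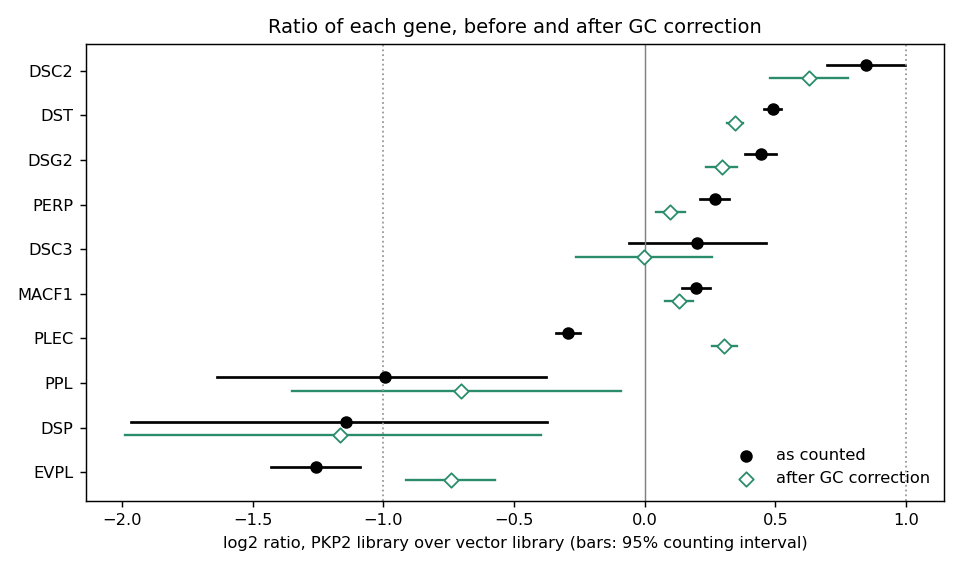
Log2 ratio of the PKP2 library over the vector library for each gene (horizontal axis; dotted lines mark 2-fold), as counted (filled circles) and after correction for transcript GC content (open diamonds), with 95% counting intervals as bars. EVPL is the lowest as counted at -1.26, DSC2 the highest at 0.85, and PLEC (-0.29 as counted, 0.30 corrected) and DSC3 (0.20 as counted, -0.002 corrected) change side.

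Compared per kilobase of the principal transcript, levels in CPM per kilobase spread widely over the 10 genes. In the PKP2 library PERP was at 60.9, DST at 50.6, DSG2 at 43.1, PLEC at 20.8 and MACF1 at 11.4, and in the vector library PERP was at 50.6, DST at 36.0, DSG2 at 31.7, PLEC at 25.5 and MACF1 at 9.92. Below these 5, DSC2 was at 3.73, EVPL at 2.91, DSC3 at 1.73, PPL at 0.255 and DSP at 0.101 in the PKP2 library. In the vector library EVPL was at 6.95, DSC2 at 2.08, DSC3 at 1.51, PPL at 0.507 and DSP at 0.224. The order was the same in both libraries except that DSC2 and EVPL changed places. PKP2, at 15.4 in the PKP2 library and 1.77 in the vector library, stood above MACF1 in the PKP2 library and between DSC3 and DSC2 in the vector library. The order of DST and of MACF1 depends on the length used. Over all annotated exons it was at 21.2 in the PKP2 library and 15.1 in the vector library, with PLEC at 18.7 and 22.9. On that length MACF1 was at 6.78 in the PKP2 library and 5.92 in the vector library, and EVPL at 2.56 and 6.12, above MACF1 in the vector library. Together the 10 genes took 0.207% of all counts in the PKP2 library and 0.177% in the vector library. DST made up 43.1% of their counts in the PKP2 library and 36.4% in the vector library.

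The ratios of the 10 genes followed the GC content of their transcripts, as those of all genes did. Spearman's rho between ratio and GC content was -0.79 across the 10 genes and -0.61 across 11610 well-counted genes, a description only, since all points come from the same pair of libraries and genes are not independent replicates. DSC2 (38.9% GC), DSC3 (39.7%), PERP (41.2%), DSG2 (42.0%) and DST (42.2%) were AT-rich, and the 2566 well-counted genes between 38 and 43% GC had a median ratio of 0.19. PPL (59.5%), EVPL (65.0%) and PLEC (67.0%) were GC-rich, and the 1837 genes between 59 and 68% GC had a median of -0.40, with 4.79% at least 2-fold lower. MACF1 (46.1%) and DSP (47.9%) lay between, and DSP at -1.14 was far below its GC baseline of 0.02.

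With a smooth GC trend subtracted, DSP was at -1.17 (interval -1.99 to -0.40), EVPL at -0.74 and PPL at -0.70 (-1.35 to -0.09). DSC2 was at 0.63, DST at 0.34, PLEC at 0.30, DSG2 at 0.29, MACF1 at 0.13 and PERP at 0.10. These 6 had counting intervals above 0, and DSC3 was at -0.002. Corrected intervals are the counting intervals moved by the trend, and do not cover the scatter of genes around it. As counted, the genes between 38 and 43% GC had quartiles of 0.04 and 0.32, and PERP at 0.27 lay between these. With the trend subtracted, DSP was the only one of the 10 at least 2-fold lower. Over all genes 3.49% were at least 2-fold lower and 2.35% higher. After the correction EVPL still ranked low, with 6% of tested genes below it, and DSC2 high, with 94.4% below it. The source of the GC trend, and its part in each ratio, was not tested.

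**Figure D3:**
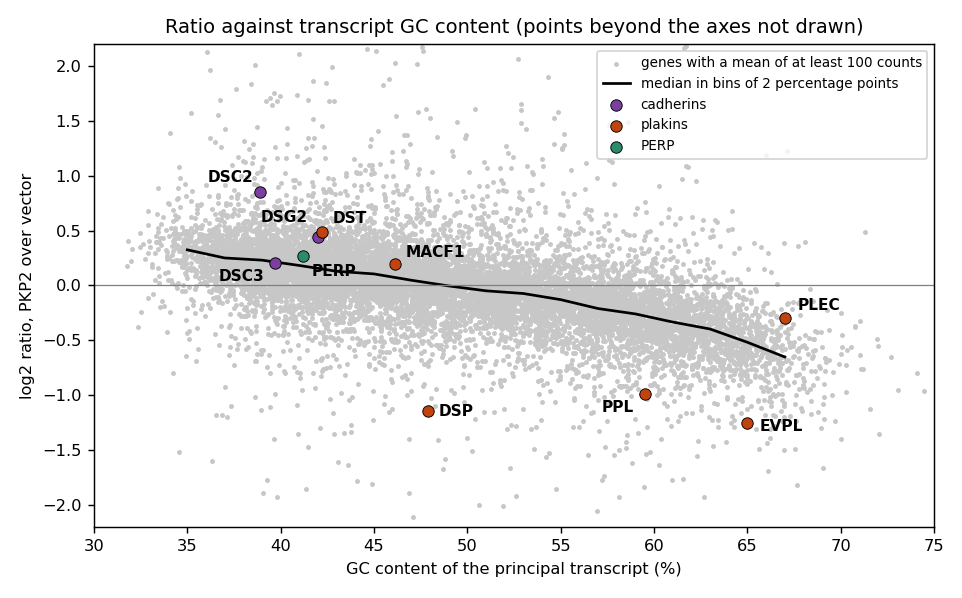
Log2 ratio of the PKP2 library over the vector library (vertical axis) against GC content of the principal transcript (horizontal axis, %), for genes averaging 100 or more counts (grey), their median in bins of 2 percentage points (line) and the 10 genes (coloured). DSP, PPL and EVPL lie below the line, DSC2, DST, PLEC and DSG2 above it, and DSC3 next to it.

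The genes beside each member on the chromosome were looked at after the values had been seen, as the nearest 4 tested genes on each side. The 3 cadherin genes stand next to each other among the tested genes of chromosome 18, in the order DSC3, DSC2 and DSG2. The next gene, B4GALT6, which encodes lactosylceramide synthase, had 1231 counts in the PKP2 library and 818 in the vector library, a ratio of 0.83 (interval 0.70 to 0.95), close to that of DSC2. The neighbours of EVPL whose span it overlaps on the opposite strand, the kinase gene CDK3 and the read-through gene TEN1-CDK3, were also lower. CDK3 had 31 counts in the PKP2 library and 67 in the vector library, a ratio of -0.88 (interval -1.54 to -0.24). TEN1-CDK3 had 134 counts in the PKP2 library and 281 in the vector library, a ratio of -0.83 (interval -1.14 to -0.53). These overlap none of the exons of EVPL, and TEN1-CDK3 shares exons with CDK3, so its count is uncertain. TEN1, the gene beyond them, was at 0.26 (interval -0.26 to 0.78). On the other side SRP68 and EXOC7 were at 0.17 and 0.13. The 8 neighbours of DSP lay between -0.15 and 0.17, and all 8 neighbours of PLEC were below 0, from -1.10 to -0.32, of which 3 were above 0 after the GC correction. None of the 10 genes shares an exon with a listed gene on either strand.

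**Figure D4:**
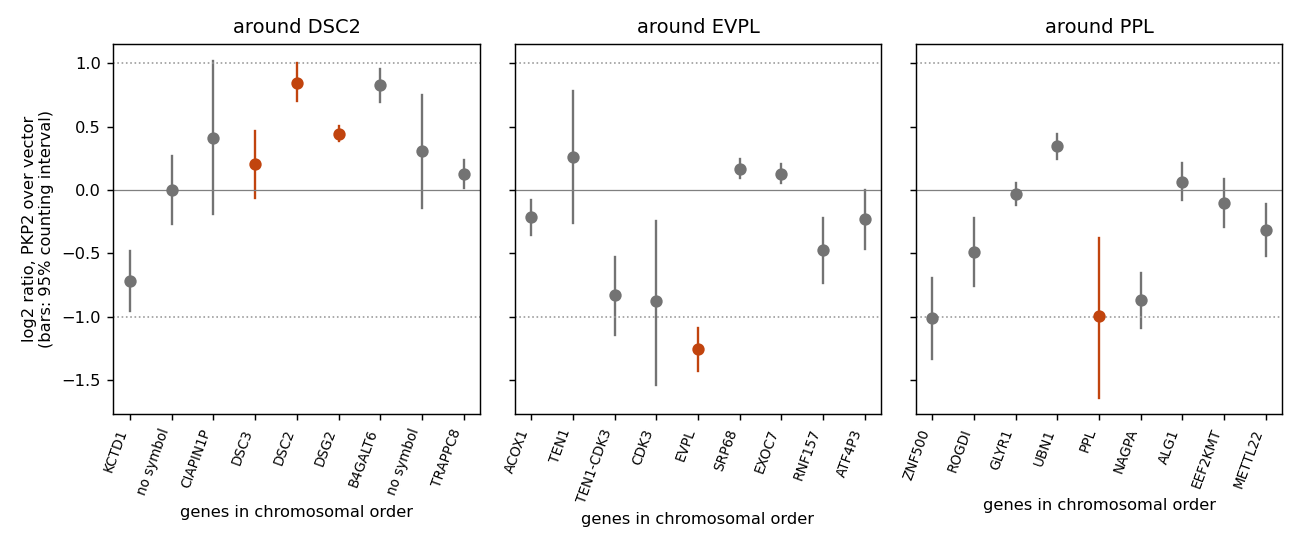
Log2 ratio of the PKP2 library over the vector library (vertical axis, bars are 95% counting intervals, dotted lines mark 2-fold) for the genes around DSC2, EVPL and PPL in chromosomal order. Members of the set are coloured: DSC2 at 0.85 stands between DSC3 at 0.20 and DSG2 at 0.44, with B4GALT6 at 0.83 beyond DSG2. EVPL at -1.26 stands beside CDK3 at -0.88, and PPL at -0.99 beside NAGPA at -0.87 and UBN1 at 0.35.

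Other genes of the same structures were read from lists. Of 9 further desmosome genes 6 had counts and 4 were tested. Of these PKP2, the delivered gene, was at least 2-fold higher and 3 were within 2-fold. PKP3, plakophilin 3, had 554 counts in the PKP2 library and 850 in the vector library, a ratio of -0.38 (interval -0.54 to -0.22) that turned to 0.21 after the GC correction. JUP, plakoglobin, the armadillo protein that binds the cadherin tails, had 3307 counts in the PKP2 library and 3854 in the vector library, a ratio of 0.02 (interval -0.05 to 0.08; 0.38 after the GC correction), and was chosen after its value was seen. PKP1 is not among the listed genes, and the plakin EPPK1, epiplakin, had 4 counts in the PKP2 library and 7 in the vector library.

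Hemidesmosomes anchor cells to the basement membrane, and in them plectin and the epithelial form of dystonin bind filaments. All 6 listed genes of that list had ratios above 0, with a median of 0.56 (0.71 after the GC correction), against 47.3% of all tested genes above 0. ITGA6, the integrin alpha 6 chain, had 3510 counts in the PKP2 library and 2321 in the vector library, a ratio of 0.83 (interval 0.76 to 0.91). ITGB4, the integrin beta 4 chain that plectin binds, had 13 counts in the PKP2 library and 7 in the vector library, a ratio of 1.13 whose interval of -0.30 to 2.70 takes in 0. COL17A1 is not among the listed genes.

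Of the intermediate filament genes that plakins bind, 8 of 12 were tested. Of these 2 were at least 2-fold higher, against 2.46% of all tested genes, and none was at least 2-fold lower, against 4.61%. The other 6 were within 2-fold. Of the 8, 3 were above 0 and 5 below, against 47.3% and 52.7% of all tested genes. The median of the 8 was -0.36, which the GC correction brought to -0.06. KRT19 was at 1.08, with 11645 counts in the PKP2 library and 6501 in the vector library, and KRT15 was at 2.56 with only 25 and 5 counts in the same order. KRT8 and KRT18, the main keratin pair of simple epithelia, were at -0.58 and -0.41 (-0.31 and -0.09 after the GC correction) and were chosen after their values were seen. KRT80, also chosen after its value was seen, had 305 counts in the PKP2 library and 706 in the vector library. Its ratio of -0.97 (interval -1.17 to -0.78) lay just inside 2-fold, and was -0.78 after the GC correction. KRT5, KRT6A and KRT14 are not among the listed genes.

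Cornified envelope genes, the setting in which envoplakin and periplakin are best known, had few counts in these cells, apart from S100A10, S100A11 and ANXA1, which other cells also express. Of 14 such genes 5 were tested, all 5 were below 0 and within 2-fold, against 52.7% of all tested genes below 0, and the median was -0.24. After the GC correction 4 of the 5 were below 0, with S100A10 at 0.08 and TGM1 at -0.67, and the median was -0.34. TGM1, the transglutaminase that crosslinks the envelope, had 48 counts in the PKP2 library and 108 in the vector library, a ratio of -0.93 (interval -1.46 to -0.43). CSTA, cystatin A, was at -0.25 with an interval of -1.31 to 0.78. IVL, LOR, TGM5, SPRR1A, SPRR1B, SPRR2A and SPRR3 are not among the listed genes under these symbols.

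The genes listed as partners of spectraplakins or of microtubule ends were all within 2-fold, with a median of 0.11 over 11 genes. CAMSAP2, which caps microtubule minus ends, was the highest at 0.66 (5804 counts in the PKP2 library and 4344 in the vector library), and at 0.43 after the GC correction. CAMSAP3 was at -0.76 with 9 and 18 counts in the same order, and at -0.12 after the GC correction. PERP relatives and regulators were within 2-fold in all 6 tested members reported here, with a median of 0.01 (-0.04 after the GC correction). Farthest from 0 were TP73, a relative of TP63, at -0.57 (interval -1.73 to 0.52) and TMEM47, a membrane protein related to PERP, at 0.14 (interval -0.13 to 0.41). Genes of desmosome assembly and turnover were within 2-fold in all 8 measured members, with a median of 0.21. ADAM10, a sheddase that cuts desmoglein 2, was at 0.44 (0.20 after the GC correction). PRMT1, an arginine methyltransferase that acts on desmoplakin, was at -0.39 (-0.12 after the GC correction). CDH1, E-cadherin, is not among the listed genes.

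Of 10 transcription factors of epithelial junction genes 7 were measured, all within 2-fold and with a median of 0.21 (0.06 after the GC correction). SNAI1, Snail, had 89 counts in the PKP2 library and 198 in the vector library, a ratio of -0.92 (interval -1.30 to -0.55). KLF5, a Krüppel-like factor of epithelia, had 858 counts in the PKP2 library and 581 in the vector library, a ratio of 0.80 (interval 0.65 to 0.95). The repressor genes ZEB1 and ZEB2, chosen after their values were seen, were at 0.72 (590 and 423 counts, PKP2 library first) and 0.63 (1921 and 1463 counts), and SNAI2 was at 0.21 with an interval of -0.17 to 0.59. After the GC correction SNAI1 was at -0.67, KLF5 at 0.76, ZEB1 at 0.51, ZEB2 at 0.415 and SNAI2 at 0.06. GRHL2, OVOL1 and OVOL2 are not among the listed genes.

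**Figure D5:**
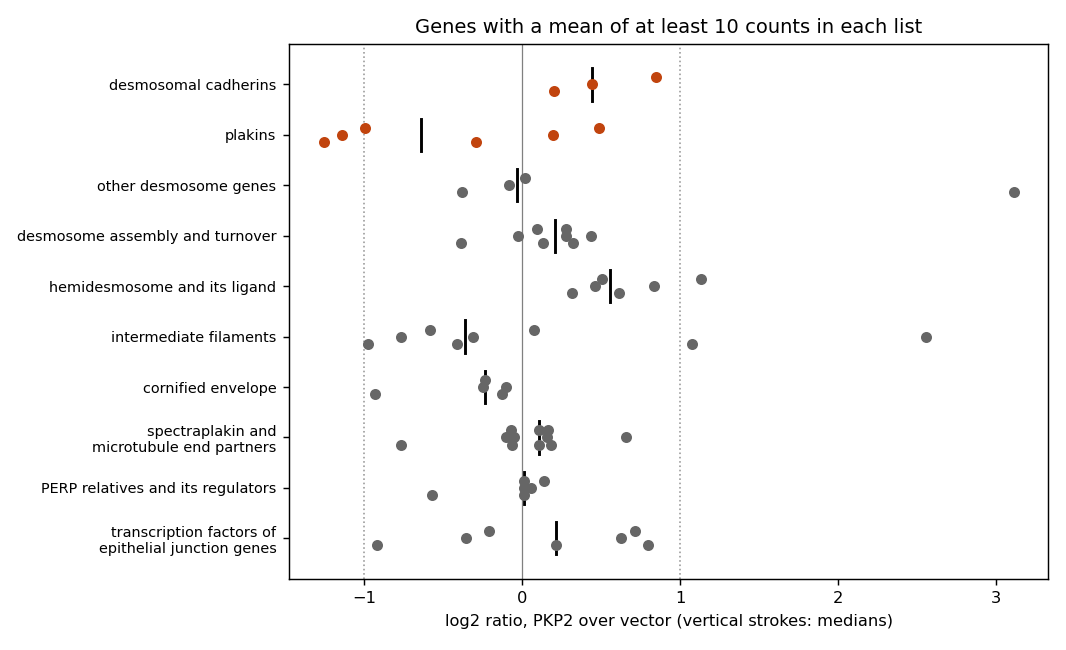
Log2 ratio of the PKP2 library over the vector library (horizontal axis, dotted lines mark 2-fold) for each tested gene, by list, with medians as vertical strokes. The cadherins (median 0.44) and all 6 hemidesmosome genes lie above 0, the 6 plakins run from -1.26 to 0.49, and the point at 3.11 is PKP2 itself.

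Markers of the cell type were read in both libraries. Of the epithelial markers the keratin genes KRT8, KRT18 and KRT19 were abundant. The keratin gene KRT7 was low, with 85 counts in the PKP2 library and 170 in the vector library (ratio -0.76, and -0.34 after the GC correction). EPCAM had 16 counts in the PKP2 library and 28 in the vector library, and CDH1 is not listed. Of 4 squamous markers only TP63 is listed. Of 5 fibroblast markers 3 are listed, with a summed level of 13.8 CPM in the PKP2 library and 11.3 CPM in the vector library. Among them COL1A1 had 48 counts in the PKP2 library and 132 in the vector library (ratio -1.22, and -0.87 after the GC correction). PDGFRB had 208 and 111 counts in the same order (ratio 1.14, and 1.37 after the GC correction). Of 3 endothelial markers only VWF is listed, at 0 counts in the PKP2 library and 2 in the vector library. Of 4 immune markers LYZ, at 0 and 4 counts, and CD68, at 412 and 362 counts (PKP2 library first), are listed. The part of these markers in the ratios was not tested.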

How the data were processed

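Libraries were prepared from H460 total RNA with Illumina's TruSeq RNA kit, per the labels' protocols. Bowtie 0.12.2 is named in the submitters' processing notes, with builds GRCh37 and hg19. How reads were counted (program, annotation, strand, shared reads) was not given in the sources used here. The authors deposited unnormalized counts for each Ensembl ID, per the file headers. As deposited they are treated as estimated counts, since 1 damaged row in each file holds a decimal, and no rounding was needed. That row and 1 row without a value were left out of each file. Symbols matched 22579 of 22965 IDs.

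Library sizes were totals times TMM factors (0.991 for PKP2, 1.01 for vector; edgeR 4.0.16 under R 4.3.3), with no edgeR test. Ratios had no pseudocount, intervals were exact binomial (Clopper-Pearson, 95%), and genes averaging 10 or more counts (tested genes) were read against 2-fold. Without molecular identifiers, reads may be copies of a molecule, which the intervals do not cover. GC content and length came from the APPRIS principal transcript of GENCODE release 29, used by gene ID and gene order since its build differs, and a lowess curve (fraction 0.3, genes averaging 100 or more counts; statsmodels 0.14.6) was subtracted for the correction. The steps were tested on simulated counts. The members and lists were chosen with earlier results of these data known. Named were all 10 genes, PKP2 and, per list, the 2 measured genes with ratios farthest from 0 and those not listed. Other genes named were chosen after their values were seen, and 1 listed gene is not reported here. Alternatives were other scalings (DESeq2 1.42.0 size factors, upper-quartile factors, plain totals), pseudocounts of 1 and 5 CPM, other count minimums and thresholds, and a GC and length correction added after the data were seen.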

Additional observations from a re-analysis of the deposited data

How the results depend on the processing

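None of the 10 genes changed the side of 0 with plain totals, DESeq2 size factors, upper-quartile factors, or 1 or 5 CPM added. These scalings moved the median of all tested genes by -0.026, 0.010 and 0.019. Of the genes at least 2-fold lower, 1 was left with the GC correction and with the GC then length correction (DSP, at -1.17 and -1.19, with EVPL at -0.74 and -0.77). With 1 or 5 CPM added and at a mean of at least 100 counts, 1 was also left (EVPL, at -1.22 and -1.07 with CPM added, with DSP at -0.68 and -0.26). At a 3-fold threshold 0 were left. At a 1.5-fold threshold 1 gene, DSC2, was higher in the PKP2 library and 3 were lower. The mean over the 10 genes was -0.12, against a median of 0.20, since DSP, EVPL and PPL lie far from the others. The GC correction turned PLEC to 0.30 and DSC3 to -0.002, and with length to 0.26 and -0.027. Summing a gene with same-strand overlapping genes gave no value, since no member shares exons with a listed gene. No paired analysis was possible because each group has 1 library. With 20 and 52 counts, DSP and likewise PPL are limited by depth.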

Other observations

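A few genes that stand near the 10 on their chromosomes are given here, and were chosen after their values were seen. Of these only AKIRIN1 and RNF125 had ratios farther from 0 than every member. AKIRIN1, a nuclear protein gene near MACF1, had 1752 counts in the PKP2 library and 778 in the vector library, a ratio of 1.41 (interval 1.29 to 1.53), while NDUFS5, between AKIRIN1 and MACF1 in gene order, was at -0.26. RNF125, a ubiquitin ligase gene near DSG2, had 55 counts in the PKP2 library and 180 in the vector library, a ratio of -1.47 (interval -1.94 to -1.03). PARP10, next to PLEC, had 110 counts in the PKP2 library and 278 in the vector library, a ratio of -1.10 (interval -1.43 to -0.78), and -0.50 after the GC correction. NHSL1, near PERP, was at 0.58, and TNFAIP3, the neighbour of PERP that encodes the NF-kB inhibitor A20, at 0.33 with 4833 and 4538 counts (PKP2 library first).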
